A study of Mus musculus and Homo sapiens
Mus musculus with 14 samples.

Results

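Dopaminergic amacrine cells of the mouse retina were compared with other amacrine cells of the same sections. They form 5 pairs of libraries, 1 TH+ and 1 TH- library from each of 5 sections, which are 10 of the 30 libraries of the series. The rule took every library of the amacrine experiment by its label and used no measured value. The retinas were wild type (CD1 IGS mice, the third postnatal week), untreated, and all sections came from 1 animal, so every p-value below measures the spread between sections of that animal. RNA was copied into cDNA inside fixed cryosections, tyrosine hydroxylase was stained with an antibody, and light then attached a DNA barcode to the cDNA of outlined cell bodies: first to TH- amacrine cells (barcode AGGGTA), then to the handful of TH+ cells of each section (barcode GTTAGG). Barcode, order and cell class therefore cannot be told apart. Each cDNA carries a unique molecular identifier (UMI), and the values are counts of distinct UMIs per gene.

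Amacrine cells are inhibitory interneurons of the inner retina that release GABA or glycine. The dopaminergic type is rare and large, sits mostly at the inner edge of the inner nuclear layer, spreads its processes in the outermost part of the inner plexiform layer, fires spontaneously and releases both dopamine and GABA. Its dopamine acts on many retinal cells and shifts the retina from rod-driven to cone-driven signalling as light rises.

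The TH+ libraries held 30317 to 87449 UMIs and the TH- libraries 134394 to 200344. Section 2 gave the deepest TH+ library and, in both classes, the lowest share of rod transcripts. The libraries held 6966 to 10757 genes with a UMI in TH+ and 11578 to 13323 in TH-, a difference that shrank to 7105 ± 185 against 7264 ± 212 genes (mean ± SD, n = 5 each) after thinning every library to 30317 UMIs. The fewer UMIs of the TH+ libraries were seen in 5 of 5 sections (exact paired permutation test, two-sided, p = 0.063, the smallest that 5 pairs allow). The TH+ outlines took in a handful of cells each and the TH- outlines many more, so these totals are not per cell and say nothing of RNA per cell. For the level of a gene or marker list within these bulk counts, fewer cells of a type and less RNA per cell cannot be told apart.

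Of 18415 genes listed, 9536 held at least 10 UMIs over the 10 libraries and were tested with edgeR's quasi-likelihood test, with the section as a block and Benjamini-Hochberg adjustment at 0.05. In TH+ libraries 60 genes were higher (0.629% of those tested) and 63 lower (0.661%). The 60 higher genes fell into 27 photoreceptor genes, meaning members of a rod or cone marker list or genes found mainly in the photoreceptor layer of other sections, and 33 others. The 33 rose by a median of 2.10 on the log2 scale and 28 of them by more than 2-fold, while the 27 rose by a median of 0.75 and 4 by more than 2-fold. The median of all genes tested was -0.17 and 37.2% of them lay above 0, so folds and counts of negative values are read against a slightly negative centre.

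**Figure D1:**
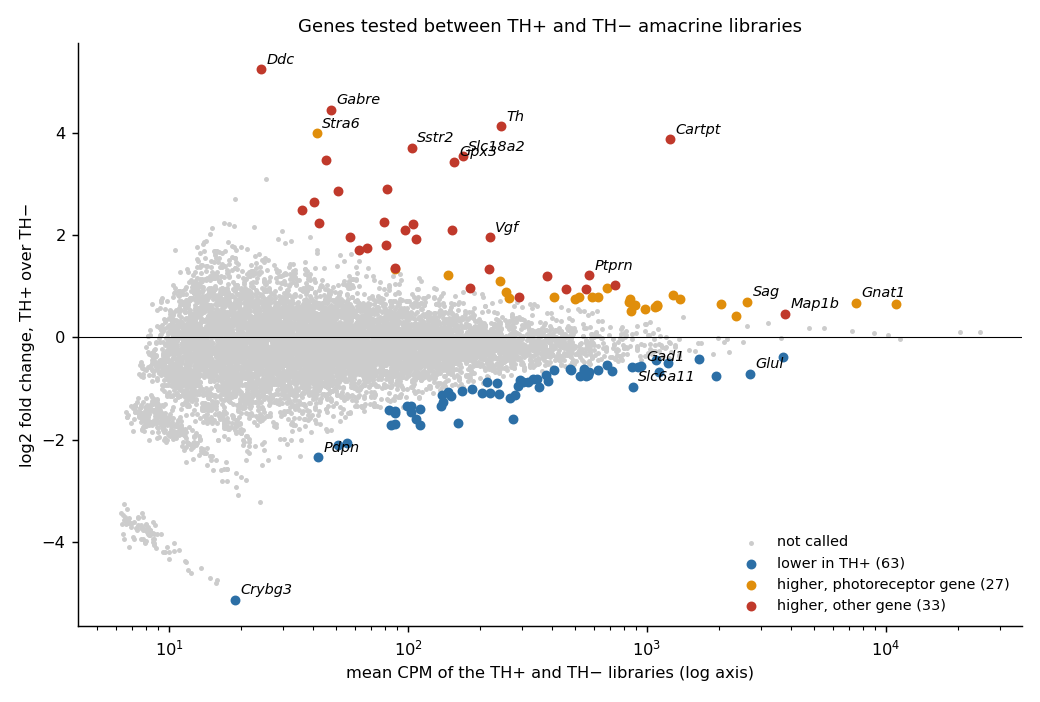
Log2 fold change of TH+ over TH- libraries (vertical) against the mean of the normalised CPM of both classes (horizontal, log axis) for 9536 genes, with each called gene coloured by its set. Cartpt and Th stand far above the rest of their abundance range, and photoreceptor genes such as Gnat1 and Sag form a band of high counts and small positive changes.

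Th, Slc18a2 and Ddc, which make and store dopamine, were higher in the TH+ libraries, whose cells were picked by TH staining. Th encodes tyrosine hydroxylase, the rate-limiting enzyme of dopamine synthesis and the protein that was stained (chromosome 7, 142443466 to 142484865, minus strand, GRCm39). It gave 23, 37, 22, 14 and 20 UMIs in the TH+ libraries of sections 1 to 5 and 3, 2, 2, 10 and 2 in the deeper TH- libraries. The classes did not overlap, and the TH- library of section 4 was the highest of its class. In normalised CPM (UMIs per library size after TMM scaling, called CPM from here), Th stood at 465 ± 107 against 23.6 ± 17.3 (SD, n = 5 each), a log2 fold change of 4.13 ± 0.30 (SE, adjusted p = 4.74e-38).

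Slc18a2 encodes VMAT2, which loads dopamine into vesicles (chromosome 19, 59249238 to 59284695, plus strand, GRCm39). Its counts were 11, 25, 18, 13 and 12 UMIs in TH+ and 0, 10, 1, 6 and 2 in TH-. All TH+ libraries again lay above all TH- libraries, with 316 ± 72.7 against 23.2 ± 24.0 CPM and a log2 fold change of 3.54 ± 0.34 (adjusted p = 8.17e-22). Ddc, the decarboxylase that turns L-DOPA into dopamine (chromosome 11, 11762602 to 11848150, minus strand), gave 1, 4, 4, 1 and 2 UMIs in TH+ and none in 801567 TH- UMIs. Against a floor of 3 UMIs over the TH- class it was at least 12.55-fold higher (adjusted p = 0.000693), and since no TH- library held a UMI it passed the filter only through the TH+ libraries. Without section 2 or section 3 it fell under the filter.

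Of the 12 genes listed for dopamine synthesis and storage 7 were tested, with 3 higher (Th, Ddc and Slc18a2), 0 lower and a list median of 1.55. Gch1, which makes the cofactor of tyrosine hydroxylase, gave 4 UMIs in TH+ and 0 in TH-, and Slc6a3, the dopamine reuptake transporter, 1 and 0, so both stayed under the filter. Qdpr, which recycles the cofactor, had a log2 fold change of 0.58 ± 0.47 (adjusted p = 0.817). Slc29a4, a plasma membrane transporter that takes up monoamines and was not on the list, rose by 1.76 ± 0.47 on the log2 scale (adjusted p = 0.0211), from 31.0 ± 17.8 to 103 ± 51.5 CPM. Its adjusted p was 0.164 without section 2 and 0.203 without section 3.

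Genes for dopamine breakdown and reception gave no call, with 0 of 7 tested higher and 0 lower. The D2 receptor Drd2 held 38 UMIs in TH+ and 100 in TH-, or 135 ± 53.4 and 136 ± 36.4 CPM (log2 fold change 0.13 ± 0.30, adjusted p = 0.967). Maoa, which breaks dopamine down, was above its partner library in 5 of 5 sections at 53.9 ± 26.2 against 20.04 ± 4.17 CPM, yet did not pass (adjusted p = 0.458). None of the 11 tested transcription factors listed for dopaminergic neurons passed. Nr4a2, a nuclear receptor needed by midbrain dopamine neurons, stood at 108 ± 28.1 against 58.5 ± 37.4 CPM (log2 fold change 0.99 ± 0.39, adjusted p = 0.268).

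**Figure D2:**
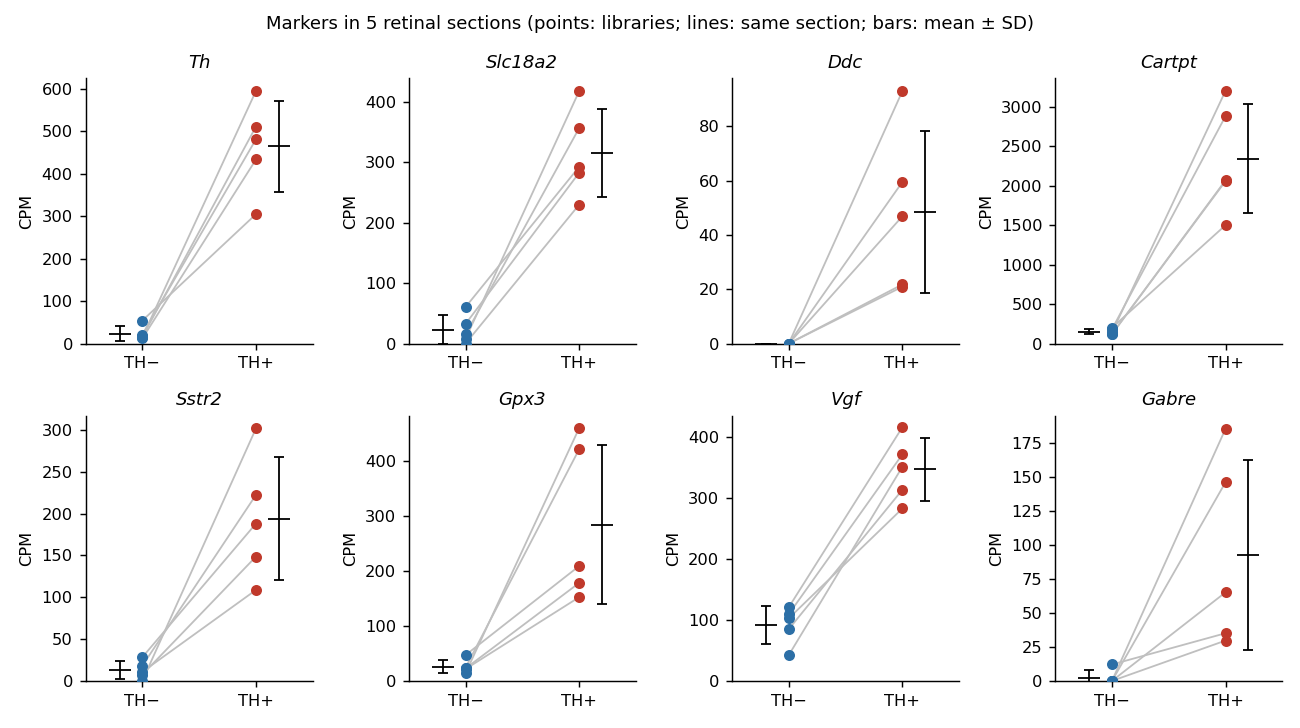
Normalised CPM (vertical, from 0) of Th, Slc18a2, Ddc, Cartpt, Sstr2, Gpx3, Vgf and Gabre in the 5 TH- and 5 TH+ libraries. Points are libraries, grey lines join libraries of one section, and black bars give mean ± SD. In each panel every TH+ library lies above every TH- library.

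Peptide signalling was the next group. Cartpt, the precursor of CART peptide (chromosome 13, 100034990 to 100047006, minus strand, GRCm39), had the smallest adjusted p of all genes. It gave 99, 176, 138, 69 and 97 UMIs in TH+ and 17, 20, 18, 37 and 24 in TH-, which is 2345 ± 689 against 153 ± 36.2 CPM (log2 fold change 3.88 ± 0.15, adjusted p = 6.53e-146). Even the lowest TH+ library, section 4 at 1502 CPM, was far above the highest TH- library, also section 4 at 200 CPM. Vgf, a secreted peptide precursor of dense-core vesicles, rose from 92.1 ± 30.7 to 347 ± 51.6 CPM (log2 fold change 1.96 ± 0.26, adjusted p = 3.48e-11). The other 5 tested peptide precursors did not pass, and Npy, Vip, Tac1, Pdyn and Nxph1, which mark or occur in other amacrine cells, had log2 fold changes between -2.32 and -0.75.

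Sstr2, a receptor for somatostatin, was counted mostly in the shallower TH+ libraries, with 9, 19, 13, 5 and 5 UMIs against 4, 3, 0, 2 and 1. This corresponded to 194 ± 73.8 against 13.0 ± 10.8 CPM (log2 fold change 3.71 ± 0.44, adjusted p = 1.1e-13). Of 8 tested peptide receptors Sstr2 rose and Gpr37 fell (adjusted p = 0.00251, and 0.15 without section 2), and Tacr1, the substance P receptor, stood at 88.2 ± 53.5 against 32.7 ± 20.4 CPM without passing (adjusted p = 0.157).

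Proteins of the dense-core vesicle, which stores and releases peptides and monoamines, gave 3 higher and 1 lower of 25 tested, with a median of 0.11. Ptprn, a membrane protein of these vesicles, rose from 346 ± 82.9 to 802 ± 253 CPM (log2 fold change 1.22 ± 0.16, adjusted p = 3.48e-11). Baiap3, a Munc13-like protein of dense-core vesicle release, rose by 2.21 ± 0.38 and Resp18 by 2.65 ± 0.64 on the log2 scale (adjusted p = 3.68e-06 and 0.00539). Syt7, a calcium sensor for slow release, fell by 0.73 ± 0.19 (adjusted p = 0.0147). The Resp18 call was lost without section 2 (adjusted p = 0.241) and the Syt7 call without section 3, 4 or 5 (0.107, 0.264 and 0.298). Common granule proteins did not pass, where Scg2 stood at 419 ± 85.2 against 423 ± 116 CPM, Cpe at 591 ± 77.3 against 583 ± 104 and Chga at 165 ± 125 against 164 ± 47.0.

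A short sequence that the tests did not use was found in the promoters of some higher genes. The cAMP response element, TGACGTCA, reads the same on both strands and was searched from 250 bases before to 50 after each RefSeq start (GRCm38.p6). It was found for 8 of the 28 non-photoreceptor higher genes in the promoter table (28.6%), for 0 of 17 photoreceptor higher genes and for 0 of 49 lower genes, beside 3.69% of all 7432 tested genes in the table. Some genes have several starts, and a gene counts once. The motif was chosen with the called genes in view, its first 5 letters alone (TGACG or the reverse complement) occur in 36.8% of genes, and a match is not evidence of binding. The stretches are shown for the genes that hold it because Th, Cartpt, Slc18a2 and Sstr2 are among them, with the element in capitals and the sequence read 5′ to 3′ along the gene.
Th, chr7:142899986-142900190, minus strand, element starting 45 bases before the start: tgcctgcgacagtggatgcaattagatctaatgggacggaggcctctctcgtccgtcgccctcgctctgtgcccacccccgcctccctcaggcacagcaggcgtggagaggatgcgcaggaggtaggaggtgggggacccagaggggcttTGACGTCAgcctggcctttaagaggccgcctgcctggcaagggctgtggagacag
Cartpt, chr13:99900674-99900933, minus strand, 112 bases before: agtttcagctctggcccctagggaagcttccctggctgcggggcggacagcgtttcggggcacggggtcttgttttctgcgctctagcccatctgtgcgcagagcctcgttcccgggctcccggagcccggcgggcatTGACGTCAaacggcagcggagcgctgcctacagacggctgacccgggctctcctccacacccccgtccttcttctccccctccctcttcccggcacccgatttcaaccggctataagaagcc
Slc18a2, chr19:59260834-59260887, plus strand, across the start: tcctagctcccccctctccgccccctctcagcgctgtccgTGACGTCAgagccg
Sstr2, chr11:113619229-113619316, plus strand, 58 bases before: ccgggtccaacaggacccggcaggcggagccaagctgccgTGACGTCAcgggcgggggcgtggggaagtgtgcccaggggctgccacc
Clstn2, chr9:98033205-98033292, minus strand, 85 bases before: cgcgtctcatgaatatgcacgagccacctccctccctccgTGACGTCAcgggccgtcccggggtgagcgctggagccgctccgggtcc
Peg3, chr7:6730550-6730637, minus strand, 178 bases before: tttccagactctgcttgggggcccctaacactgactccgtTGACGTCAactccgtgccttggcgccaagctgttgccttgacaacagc
In Celf6 and Clstn3 the element begins 232 bases and 1 base before the start. Vgf has no entry in the table.

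Of 15 tested subunits of the GABA-A receptor 2 were higher, epsilon (Gabre) and theta (Gabrq), both on the X chromosome, and 13 did not pass. Gabre gave 7, 3, 8, 3 and 1 UMIs in TH+ and 0, 2, 0, 0 and 0 in TH-, a ratio of 34.5 per UMI sequenced (95% exact interval 8.48 to 303, counting error only) with adjusted p = 3.32e-06. Gabrq gave 2, 7, 4, 4 and 4 against 0, 1, 0, 2 and 2 UMIs, a ratio of 13.2 (4.84 to 44.7) with adjusted p = 9.57e-05. Both rest on few molecules, and with so few TH- UMIs both reached the filter only through the TH+ libraries. The classes did not overlap in CPM, but their raw counts overlapped or tied. For Gabre the lowest TH+ library held 1 UMI (29.74 CPM) and the highest TH- library 2 UMIs (12.09 CPM). For Gabrq these libraries held 2 UMIs (41.83 CPM) and 2 UMIs (15.1 CPM). The separation of these libraries therefore rests on the shallower depth of the TH+ class. Among the other subunits Gabrb1 stood at 119 ± 60.9 against 56.9 ± 16.3 CPM (log2 fold change 1.05 ± 0.38, adjusted p = 0.188) and Gabrg3 at 137 ± 66.8 against 112 ± 20.1 CPM (0.23 ± 0.32, adjusted p = 0.929).

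Of 17 tested calcium channel genes 2 were lower. Cacna1g, which encodes a T-type channel, fell from 372 ± 51.8 to 164 ± 51.4 CPM (log2 fold change -1.18 ± 0.23, adjusted p = 0.000129) and Cacna2d3 fell by 2.11 ± 0.58 (adjusted p = 0.0246). The Cacna2d3 call was lost without section 2, 3 or 4 (adjusted p = 0.593, 0.0829 and 0.174).

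Arpp21, a phosphoprotein regulated by cAMP and known from dopamine-receiving striatal neurons, rose from 11.7 ± 8.58 to 89.8 ± 34.4 CPM (log2 fold change 2.87 ± 0.57, adjusted p = 0.000129). It was 1 of 25 tested genes of protein kinase A signalling to pass. Gpx3, the secreted glutathione peroxidase, rose from 25.9 ± 12.4 to 284 ± 145 CPM (log2 fold change 3.44 ± 0.34, adjusted p = 2.5e-20). Its TH+ counts varied widely, with 22 and 36 UMIs in sections 1 and 2 and 9, 7 and 6 in sections 3, 4 and 5, against 2, 4, 6, 4 and 3 in TH-, and none of the other 21 tested antioxidant enzymes passed.

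Among 59 tested genes of adhesion and axon guidance 4 were higher and 1 lower, with a list median of -0.24. Clstn2 and Clstn3, calsyntenins of the synaptic membrane, rose by 2.10 ± 0.30 and 0.97 ± 0.27 on the log2 scale (adjusted p = 4.53e-09 and 0.0269), while Clstn1, more abundant at 1183 ± 202 against 1549 ± 288 CPM, did not pass (adjusted p = 0.122). Plxna4, a semaphorin receptor, rose by 1.34 ± 0.24 and Cdh13, a cadherin without a cytoplasmic tail, by 1.35 ± 0.38 (adjusted p = 8.76e-06 and 0.0318). Plxna4 was higher in 4 of 5 sections and did not pass without section 2 (adjusted p = 0.166). Cdh13 was lost without section 2 or 4 (0.651 and 0.12), Clstn3 without any one of sections 1, 2, 4 and 5 (0.0615 to 0.205), and Ptprd without section 3 (0.318). The lower gene was Ptprd, an adhesive phosphatase, which fell by 0.82 ± 0.21 (adjusted p = 0.00895).

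Other genes of the 33 were the imprinted gene Peg3 (490 ± 68.6 to 980 ± 294 CPM), the ciliary gene Ahi1 (234 ± 40.6 to 527 ± 136), the Ras exchange factor Rasgrf1 (389 ± 59.8 to 727 ± 188), the lysosomal glucosidase Gaa (307 ± 65.3 to 611 ± 106), the G protein subunit Gng4 (43.9 ± 9.39 to 171 ± 87.5) and the calcium-binding protein Necab2 (32.8 ± 20.04 to 162 ± 70.8). In each of these 6 the classes did not overlap. The microtubule protein Map1b had the smallest change of the 33, 0.46 ± 0.10 on the log2 scale, from 3214 ± 626 to 4338 ± 416 CPM, and did not pass without section 2 (adjusted p = 0.0689) or without the block (0.267). Over the whole set 27 of 33 did not overlap between classes, beside 0.566% of genes tested with all TH+ libraries above all TH- libraries, and 29 of 33 were higher in 5 of 5 sections.

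**Figure D3:**
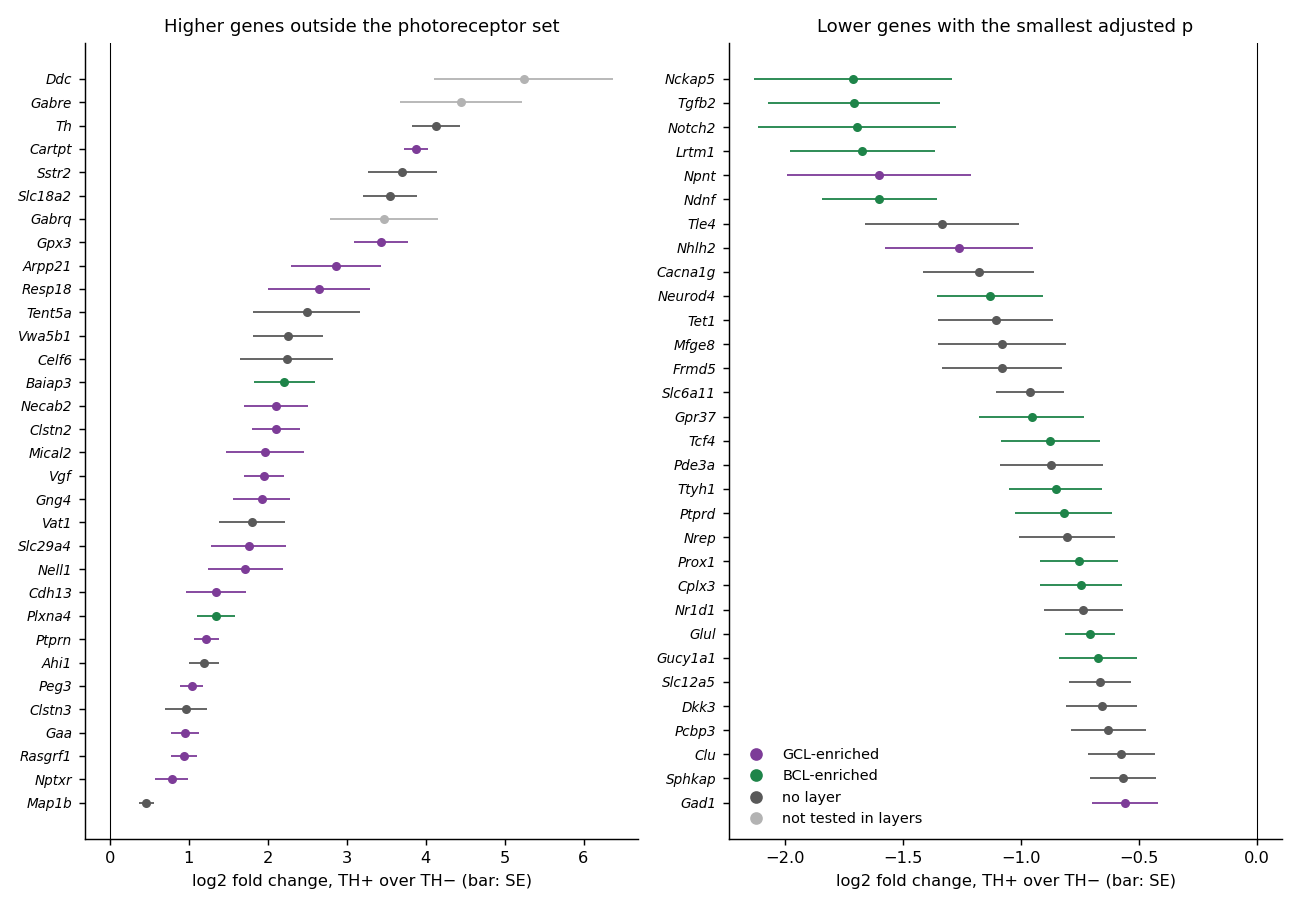
Log2 fold change with its SE (horizontal) for 32 of the 33 higher genes outside the photoreceptor set (left) and 31 of the 63 lower genes, taken from those with the smallest adjusted p (right), coloured by the layer in which the gene was enriched in 4 other sections. Higher genes run from 0.46 (Map1b) to 5.24 (Ddc, absent from TH- libraries, so its fitted value depends on the prior count), and most lower genes lie between -1.3 and -0.5.

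The layer of highest level was read for these genes from 12 layer libraries of 4 other sections. They cover the outer nuclear layer (ONL, photoreceptors), the bipolar cell layer (BCL) and the ganglion cell layer (GCL). The paper places displaced amacrine cells in the GCL beside ganglion cells, so GCL enrichment does not single out ganglion cells. The amacrine part of the inner nuclear layer was not outlined, so a low level in these layers does not mean absence from the retina. A gene was assigned to a layer when it was more than 2-fold higher there than in both others with adjusted p under 0.05, which made 8.53% of the genes tested here ONL-enriched, 3.93% BCL-enriched and 12.6% GCL-enriched. Of the 33 higher genes 18 were GCL-enriched, 2 BCL-enriched (Baiap3 and Plxna4), 10 in no layer and 3 (Gabre, Gabrq and Ddc) were not tested there. Th was near 0 in all layers (1.51, 0 and 3.33 CPM in ONL, BCL and GCL), whereas Cartpt stood at 169 CPM in the GCL and 13.4 and 15.4 in the others. Of the 63 lower genes 24 were BCL-enriched, 9 GCL-enriched and 0 ONL-enriched.

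All 27 photoreceptor genes among the higher ones were ONL-enriched, and 19 of them are on the rod list. Rod phototransduction genes are not known products of amacrine cells, so this set is described apart from the 33. Gnat1, rod transducin, gave 452, 394, 451, 494 and 351 UMIs in TH+ and 1009, 398, 878, 1398 and 690 in TH-, or 9147 ± 2581 against 5837 ± 2116 CPM (log2 fold change 0.68 ± 0.09, adjusted p = 4.22e-11). Sag, rod arrestin, stood at 3245 ± 1051 against 2006 ± 709 CPM (0.70 ± 0.10, adjusted p = 6.81e-09). The class ranges of both genes overlapped, with section 2 the lowest library in each class, while TH+ exceeded TH- in 5 of 5 sections. Only 2 of the 27, Stra6 and Hspb6, did not overlap between classes. Of the 27 calls 17 held without the block and 15 held whichever section was left out.

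The rod list as a whole held 4.78, 2.47, 5.87, 5.98 and 5.49% of UMIs in the TH+ libraries and 3.47, 1.43, 3.299, 3.44 and 2.63% in the TH- libraries, a ratio of means of 1.72 with TH+ higher in 5 of 5 sections. In the ONL libraries the same list held 13.4 ± 0.922% (n = 4). Of 41 rod genes tested 19 were higher and 0 lower, 40 had a positive log2 fold change and the median was 0.68. Of 11 cone genes 0 passed, with a median of 0.11. Rod transcripts were thus abundant in both classes and more so in TH+ libraries, and their source was not tested.

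**Figure D4:**
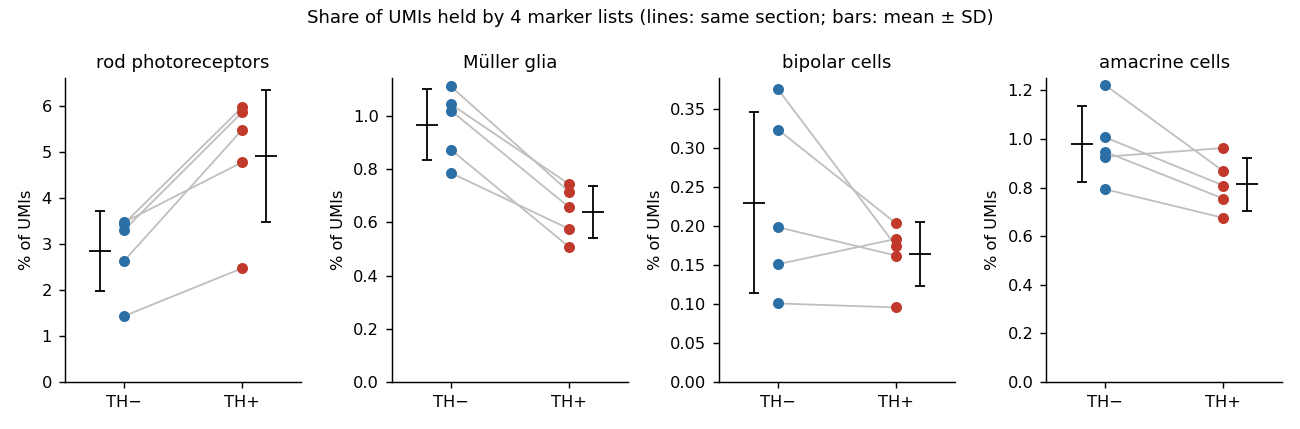
Share of UMIs (vertical, percent, from 0) held by the rod, Müller glia, bipolar and amacrine marker lists in TH- and TH+ libraries. Points are libraries, lines join libraries of one section and bars give mean ± SD. The rod share rises and the Müller share falls along every line, while bipolar and amacrine shares do not move one way in all sections.

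For each of the 27 genes the UMIs per 1000 UMIs of the other rod-list genes were compared with the ONL libraries, and 25 lay within 2-fold (median ratio 0.878). These 27 were chosen for being higher in TH+, so genes that lagged behind were left out, and all 813 ONL-enriched genes tested had a median log2 fold change of 0.12, with 490 above 0. Gnat1 was 2.24 times its ONL proportion in TH+ libraries and 2.22 times in TH- libraries. Stra6 was the other exception, at 15.0 times its ONL proportion in TH+ and 0.914 times in TH-.

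Stra6, a membrane receptor that takes up retinol (chromosome 9, 57970967 to 58063543, plus strand, GRCm39), therefore belongs to the photoreceptor set by layer, but not by its proportion in TH+ libraries. It gave 3, 8, 3, 5 and 2 UMIs in TH+ and 1, 0, 1, 1 and 0 in TH-, a ratio of 22.0 (95% exact interval 6.56 to 115) and 78.9 ± 21.4 against 4.06 ± 3.81 CPM (adjusted p = 2.45e-05). With so few TH- UMIs, it reached the filter of 10 UMIs only through the TH+ libraries. In the layer libraries it was scarce throughout, at 18.5, 6.55 and 4.29 CPM in ONL, BCL and GCL. Among retinoid genes it was 1 of 10 tested to pass.

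**Figure D5:**
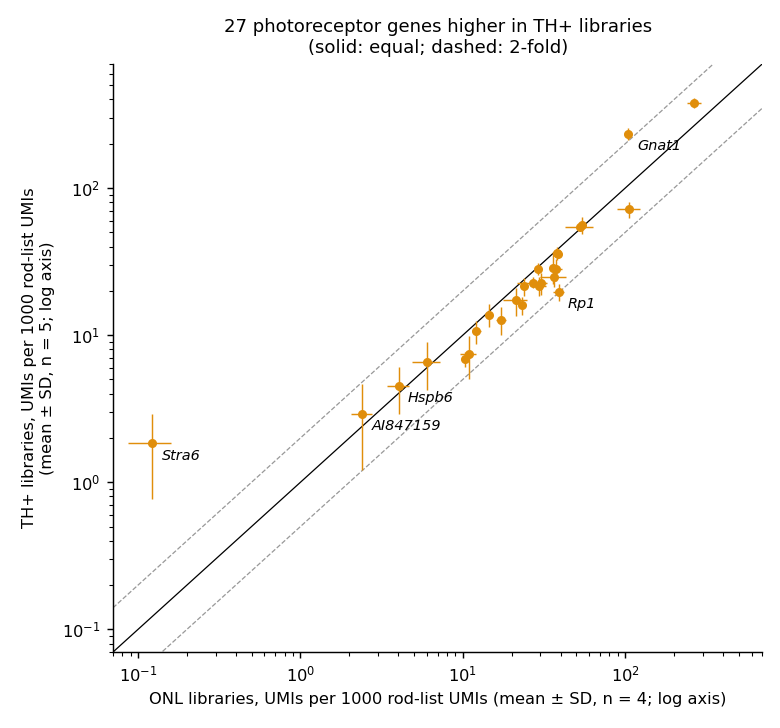
UMIs per 1000 UMIs of the other rod-list genes in TH+ libraries (vertical) against ONL libraries (horizontal), both on log axes with mean ± SD, for the 27 photoreceptor genes that were higher in TH+ libraries. The solid line marks equal proportion and the dashed lines 2-fold. Of the 27 genes 25 lie between the dashed lines, Gnat1 just above, and Stra6 stands far above at 1.84 against 0.123.

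A second short sequence was tallied for comparison. TAATCC, the core bound by CRX and related factors of photoreceptors, occurs on either strand in the promoters of 7.08% of tested genes, of 7 of 17 photoreceptor higher genes in the table (41.2%), of 3 of 28 other higher genes and of 4 of 49 lower genes. Again the motif was chosen knowing the calls. It is shown for Crx, which encodes the factor itself, and for Rbp3, with the motif in capitals as it reads along the gene (GGATTA is its reverse complement).
Crx, chr7:15880004-15880089, minus strand, 94 bases before the start: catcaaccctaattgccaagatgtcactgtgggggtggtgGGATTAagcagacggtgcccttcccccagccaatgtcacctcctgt
Rbp3, chr14:33953894-33953979, plus strand, 69 bases before: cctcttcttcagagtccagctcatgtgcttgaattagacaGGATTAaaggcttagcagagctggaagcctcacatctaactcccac

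Of 9 tested genes for GABA and glycine synthesis and transport 4 were lower, 0 higher and 9 had a negative log2 fold change, with a median of -0.56. Slc6a11, the transporter GAT3, gave 27, 53, 31, 28 and 13 UMIs in TH+ and 174, 160, 141, 264 and 146 in TH-, or 580 ± 122 against 1166 ± 173 CPM (log2 fold change -0.96 ± 0.14, adjusted p = 1.56e-08). Every TH+ library was below every TH- library.

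Gad1, which makes GABA, was 743 ± 139 against 1148 ± 364 CPM (log2 fold change -0.56 ± 0.14, adjusted p = 0.00638) with 24 to 61 UMIs in every TH+ library. That call was lost without section 4 or 5 (adjusted p = 0.189 and 0.276) and without the block (0.0514). Gad2 and the vesicular transporter Slc32a1 did not pass, at 253 ± 161 against 314 ± 104 and 306 ± 84.1 against 338 ± 99.6 CPM (adjusted p = 0.905 and 0.93). Slc6a5, the neuronal glycine transporter, fell by 1.33 ± 0.39, to 52.9 ± 38.3 from 144 ± 37.5 CPM (adjusted p = 0.0458, and between 0.0575 and 0.357 without any one of sections 2 to 5). Slc12a5, the chloride exporter KCC2 that keeps GABA inhibitory, fell by 0.67 ± 0.13 (adjusted p = 0.000103).

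Müller glia span the retina and clear transmitters, and 7 of their 20 tested markers were among the 63 lower genes, with 0 higher, 20 negative and a median of -0.68. Glul, glutamine synthetase, gave 83, 228, 90, 105 and 45 UMIs in TH+ and 379, 583, 550, 640 and 374 in TH-, or 2024 ± 511 against 3359 ± 648 CPM (log2 fold change -0.71 ± 0.11, adjusted p = 1.27e-08). Slc1a3, the glial glutamate transporter, Dkk3, Clu, Gpr37 and Cp were lower as well, by 0.57 to 1.45 on the log2 scale, and Slc6a11 is on this list too. Each of those 5 calls was lost when at least 1 section was left out, with adjusted p up to 0.433 for Slc1a3 without section 3, 0.25 for Cp without section 2, 0.15 for Gpr37 without section 2, 0.115 for Clu and 0.0999 for Dkk3 without section 5. Rlbp1, a visual-cycle protein of these glia, did not pass at 507 ± 68.4 against 644 ± 184 CPM (adjusted p = 0.528). The list held 0.576, 0.744, 0.715, 0.657 and 0.508% of UMIs in TH+ and 0.786, 1.04, 1.11, 1.02 and 0.874% in TH-, lower in 5 of 5 sections, and its part in the lower genes was not tested.

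Of 40 tested amacrine transcription factors 3 were lower and 0 higher, with a median log2 fold change of -0.28, and the 21 tested bipolar markers had a median of -0.59. Neurod4, Tcf4 and Prox1, all BCL-enriched in the layer libraries, fell by 1.13 ± 0.23, 0.88 ± 0.21 and 0.75 ± 0.17 on the log2 scale. The Tcf4 call was lost without section 1 or 4 (adjusted p = 0.105 and 0.0713) and the Prox1 call without section 3 or 4 (0.22 and 0.105). Pax6 and Tfap2b, which mark amacrine cells in general, did not pass, at 513 ± 172 against 602 ± 105 and 667 ± 140 against 901 ± 193 CPM (adjusted p = 0.815 and 0.133). Both were counted in all 10 libraries, with at least 15 UMIs of Pax6 and 22 of Tfap2b in each.

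Smaller groups of lower genes followed. Of 33 tested genes of vesicle release 3 were lower, the calcium sensor Syt1, the complexin Cplx3 and the fusion ATPase Nsf, by 0.41, 0.75 and 0.54 on the log2 scale. Cltc, the clathrin heavy chain, fell by 0.45 ± 0.13. Calls of Syt1, Nsf and Cltc were lost in 4, 4 and 5 of the 5 fits that left out 1 section, while Cplx3 passed in all 5. Other lower genes, on no list and not tested as a group, included Ndnf (4, 21, 5, 5 and 5 UMIs against 20, 151, 69, 51 and 23), Tgfb2 (1, 10, 3, 1 and 0 against 14, 41, 27, 29 and 23), Npnt, Notch2 and Efnb2. Ndnf and Tgfb2 were BCL-enriched, and the TH- library of section 2 was the highest for both. Crybg3 had no UMI in 255496 TH+ UMIs and 29 in TH-, at least 3.08-fold lower against the floor of 3 UMIs (adjusted p = 0.0211, and 0.276, 0.199 and 0.111 without section 2, 3 or 4). With no TH+ UMI, it passed the filter only through the TH- libraries. The call was also lost for Npnt (0.12 without section 5), Notch2 (0.11 without section 3) and Efnb2 (0.915 without section 2). Nr1d1, a clock repressor, was 1 of 21 tested clock genes to pass, at 429 ± 122 against 709 ± 120 CPM, and 17 of the 21 were negative.

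The 63 lower genes had a median log2 fold change of -0.95 and 29 of them fell by more than 2-fold, while all 60 higher genes had a median of 1.15 with 32 over 2-fold. Of the lower genes 28 did not overlap between classes, beside 2.23% of genes tested with all TH+ libraries below all TH- libraries. The call of lower genes depended on the model: without the section block 33 were lower, and DESeq2 with the block called 3, with Glul and Slc6a11 among them, whereas 48 and 50 were higher under the same alternatives. Without section 3, 4 or 5 there were 28, 22 and 39 lower genes. With DESeq2's size factors in edgeR 95 were higher and 38 lower, so that 71.4% of calls were higher instead of 48.8%, and the median of all genes shifted by 0.116. None of the called genes changed sign under any of the 14 alternatives that gave it a value.

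The study designed sets of probes to image several of the higher genes. The sets held 17 probes for Cartpt, 48 for Slc18a2, 33 for Gpx3, 30 for Gabre and 66 for Stra6. A single probe therefore does not mark where in the transcript the RNA was seen. The hybridising part of the lowest-numbered probe of 30 bases that matches the coding sequence of 1 exon of the canonical GENCODE transcript is shown for 5 genes, antisense to the RNA, all in capitals because the whole stretch pairs (GRCm39).
Cartpt, probe 8, chr13:100035475-100035504, exon 3 of 3: GTCACACAGCTTCCCGATCCTGGCCCCTTT
Slc18a2, probe 2, chr19:59251660-59251689, exon 3 of 16: GGAGCTGGACAGTGGCTTTGGAGGCAAACA
Gpx3, probe 1, chr11:54800314-54800343, exon 5 of 5: GCGGATGTCATGGATCTTCATGGGTTCCCA
Gabre, probe 8, chrX:71301248-71301277, exon 9 of 9: CCACACCGCCTCCAGGGACACTGAGGTCTT
Stra6, probe 3, chr9:58053024-58053053, exon 10 of 19: ATGATGGGAGAAGGCCCAGGCCCGAGACAG
The sequenced cDNA was primed along the transcript, so UMIs of a gene need not come from these positions.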

How the data were processed

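TH+ and TH- amacrine cells of 5 sections and, as a reference, 3 layers of 4 sections were used. The authors extracted UMIs and barcodes with UMI-tools 1.1.1, mapped reads with STAR 2.7.9a to GENCODE vM27 (GRCm39), dropped reads with several matches, assigned exons with featureCounts, collapsed UMIs per gene, split libraries by exact barcode and removed 2 ribosomal RNA genes. The deposited count of a gene is its number of distinct UMIs, without normalization. Genes with near-identical copies are therefore undercounted.

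Genes with 10 or more UMIs were tested with edgeR 4.0.16 under R 4.3.3 (TMM, quasi-likelihood, section as block, Benjamini-Hochberg 0.05); they held all but 2.61% of UMIs. DESeq2 1.42.0 was an alternative. Both libraries of a pair come from 1 section. Residuals of same-section libraries correlated at 0.207 in section 2 and at 0.024 to 0.072 in the other sections. Those of different sections correlated at -0.095 to 0.030. On simulated counts (9577 genes, 200 of them changed) 34.7% of 2-fold and 92.4% of 4-fold changes were recovered, with 7 false among 137 calls. These counts were drawn with a biological coefficient of variation of 0.15, against 9.042% fitted to the real counts. The rates were not split by UMI count, so recovery and false calls among scarce genes were not tested. Library measures used exact permutation tests (python 3.11.15, scipy 1.17.1). Intervals are exact binomial and, like floors of 3 UMIs, cover counting error only. Of 123 called genes 122 had a position in GENCODE vM39, matched by Ensembl ID. Promoters are RefSeq's.

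Named genes were the 4 markers, 8 genes the study names, 30 per direction by adjusted p, every listed gene that passed and up to 4 abundant further members per list; some of these are not reported here. Members and lists were chosen with earlier results of these data known. Alternatives were no block, DESeq2 with and without block, DESeq2's size factors, 3 other count filters, mitochondrial or photoreceptor genes left out, and each section left out.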

Additional observations from a re-analysis of the deposited data

Results flagged for a closer look

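In groups of 5 libraries, a gap above Dixon's critical value marked a single library in 9 of 148 groups, and chance marks about 1 in 20. Of these 9, 7 are libraries of section 2, the section with the lowest rod share. It was the lowest for Gnat1 at 4615 CPM in TH+ (next 9454), Prph2 at 855 CPM in TH+ (next 1725), Rbp3 at 797.8 CPM in TH- (next 1577) and the ganglion cell list at 0.118% of UMIs in TH- (next 0.203%). The same section gave the high Lrtm1 value of 152.3 CPM in TH+ (next 69.7), the high Gpr37 value of 707.1 CPM in TH- (next 352) and the only TH- library with Gabre UMIs, 12.09 CPM.

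The TH- library of section 4 held 54.05 CPM of Th, against 21.2 in the next. It was also the highest TH- library for Cartpt, at 200 CPM. In section 1, Gad1 stood at 983 CPM in TH+ (next 714).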

How the results depend on the processing

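None of the 61 genes taken by the markers, the study and the smallest adjusted p changed sign under any alternative run: of 840 values 734 kept their side of the threshold and 106 lost it. The count of higher genes was 60 and became 34 with DESeq2 without a block, 95 with DESeq2's size factors in edgeR, 96 with edgeR's own filter, 96 with 50 or more UMIs and 33 without photoreceptor genes, which the last removes by construction. The count of lower genes was 63 and became 33 with no replicate block, 3 and 2 with DESeq2 with and without the block, and 38 with DESeq2's size factors. Leaving out 1 section gave 46 to 60 higher and 22 to 55 lower genes, with 28, 22 and 39 lower without sections 3, 4 and 5; the cause was not tested. Without the pairing the exact test of library measures, which 5 pairs cannot bring below 0.063, gave p = 0.00794 for UMIs (ratio 0.3187), genes (0.6923) and the Müller share (0.6616) and p = 0.0397 for the rod share (1.723); adjusted over the 12 cell type lists, p was 0.0952 for the Müller and 0.1905 for the rod share. The number of genes ONL-enriched in the layer libraries rose to 1840 with no fold minimum. Shares of lists with few UMIs changed direction when 1 section was left out, with ratios of 0.8584 to 1.189 for pigment epithelium, 0.9314 to 1.016 for endothelial cells and pericytes and 0.7184 to 1.049 for microglia. Called under all 14 alternatives were 17 of the 33 higher genes outside the photoreceptor set and 2 of the 63 lower ones, with Slc6a11 among them. A gene without a value in an alternative counts as not called there. The filter of 50 or more UMIs left a value for 23 of the 33, and all 23 were called. At these depths 3 UMIs equal 34.3 to 99.0 CPM in TH+ and 15.0 to 22.3 in TH- libraries before TMM scaling, which limits the precision of scarce genes.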

Other observations

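Mitochondrially encoded genes held 9.32, 7.71, 7.30, 8.83 and 6.68% of UMIs in the TH+ libraries and 8.12, 7.13, 6.25, 6.90 and 6.23% in the TH- libraries, higher in TH+ in 5 of 5 sections, and 0 of the 8 tested members of the list passed. Of those 8, 7 encode respiratory chain subunits, and the other is the ribosomal RNA mt-Rnr2, the most abundant, at 25699 ± 5929 against 23690 ± 5203 CPM (log2 fold change 0.11 ± 0.09, adjusted p = 0.815). Immediate-early genes, which follow recent activity, held 0.0453 ± 0.00728% against 0.0340 ± 0.00405% of UMIs (SD, n = 5 each), higher in 5 of 5 sections, yet 0 of 10 tested passed. Egr1 was above its partner library in 5 sections (74.0 ± 38.6 against 34.1 ± 20.9 CPM, adjusted p = 0.438).

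Metabotropic glutamate receptors, through which neurons sense slow glutamate signals, held 0.0264 ± 0.00475% against 0.0455 ± 0.00561% of UMIs, lower in 5 of 5 sections, with 0 of 7 tested passing and 7 negative. Markers of other amacrine types held 0.258 ± 0.0374% against 0.342 ± 0.0410%, with a ratio of 0.9992 in section 1 and a lowest ratio of 0.627. Of 25 tested 2 were lower (Prox1 and Slc6a5) and 20 negative. The cholinergic markers Chat and Slc5a7, which are on this list, gave 11 and 11 UMIs in TH+ and 28 and 22 in the deeper TH- libraries, and neither passed. Synpr, a synaptic vesicle protein, stood at 180 ± 51.2 against 321 ± 89.6 CPM and did not pass (adjusted p = 0.0865).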
